A study of Arabidopsis thaliana with 4 samples.

Results

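The 46 genes described here encode the nuclear part of the photosynthetic light reactions in Arabidopsis thaliana: the light-harvesting antenna proteins (LHCB and LHCA), the nuclear subunits of photosystem I (PSA) and photosystem II (PSB), and the electron carriers PETC, PETE1 and PETE2. They were listed by locus identifier, with earlier results of these data known, and all 46 were found among the 34133 loci of the table. By complex they comprise 9 genes of the trimeric antenna of photosystem II (LHCII), 6 of its minor antenna, 6 of the photosystem I antenna, 12 photosystem I subunits, 10 photosystem II subunits and 3 electron carriers. Poly(A)-selected RNA of whole seedlings, grown for 10 days on agar at 23 °C with 16 h of light a day, was sequenced from C24 wild-type seedlings and from the mutants prp31, zop1 and sta1, which share the C24 background. PRP31 and STA1 belong to spliceosomal ribonucleoprotein particles and ZOP1 is a zinc-finger protein tied to splicing. The labels name neither the alleles nor how many plants were pooled. Each genotype had 1 library, so no difference below has a replicate check, no test was possible, and the values describe these libraries.

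In the thylakoid membrane, antenna proteins bind chlorophyll and pass excitation energy to both photosystems, which work in series. Photosystem II takes electrons from water, the cytochrome b6f complex and plastocyanin carry them on, and photosystem I delivers them to ferredoxin. The reaction centre proteins are made in the chloroplast, whereas the antenna and many peripheral subunits are nuclear genes, strongly expressed in green tissue and induced by light.

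Levels are given in FPKM, read fragments scaled to 1000 bases of transcript and to 1000000 mapped fragments of a library. Depths implied by the smallest steps of the values, in units of 1000000 reads, were 49.2 for wild-type seedlings, 54.6 for prp31, 40.7 for zop1 and 44.3 for sta1. PRP31 was at 16.4 FPKM in prp31 and between 23.2 and 25.1 FPKM in the other libraries, and ZOP1 was at 7.99 FPKM in its mutant and between 12.8 and 15.0 FPKM elsewhere. STA1 was highest in the library labelled sta1, at 18.9 FPKM against 14.1 FPKM in the wild type, so its level does not check that label. All 133 chloroplast loci were listed at 0 in every library, and the chloroplast-encoded reaction centre genes were not analysed here. In such bulk libraries, fewer cells of a type and less RNA per cell cannot be told apart.

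The 46 genes were among the most abundant transcripts of the seedlings. Together they held 14.5% of all FPKM in wild-type seedlings, 14.7% in prp31, 13.4% in zop1 and 15.3% in sta1. All 46 passed the filter on low values, a mean of 1 FPKM, and 39 had a mean of at least 1000 FPKM. The 7 below that were LHCB4.3, LHCB7, LHCA5, LHCA6, PSAE2, PETC and PETE1. Transcripts of green tissue were thus plain in every library, and counting error was small, since 41 genes had over 10000 implied reads in every library and the lowest value rested on 996 reads. Intervals below are exact 95% intervals of the ratio of FPKM on the implied reads and cover counting error only.

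**Figure D1:**
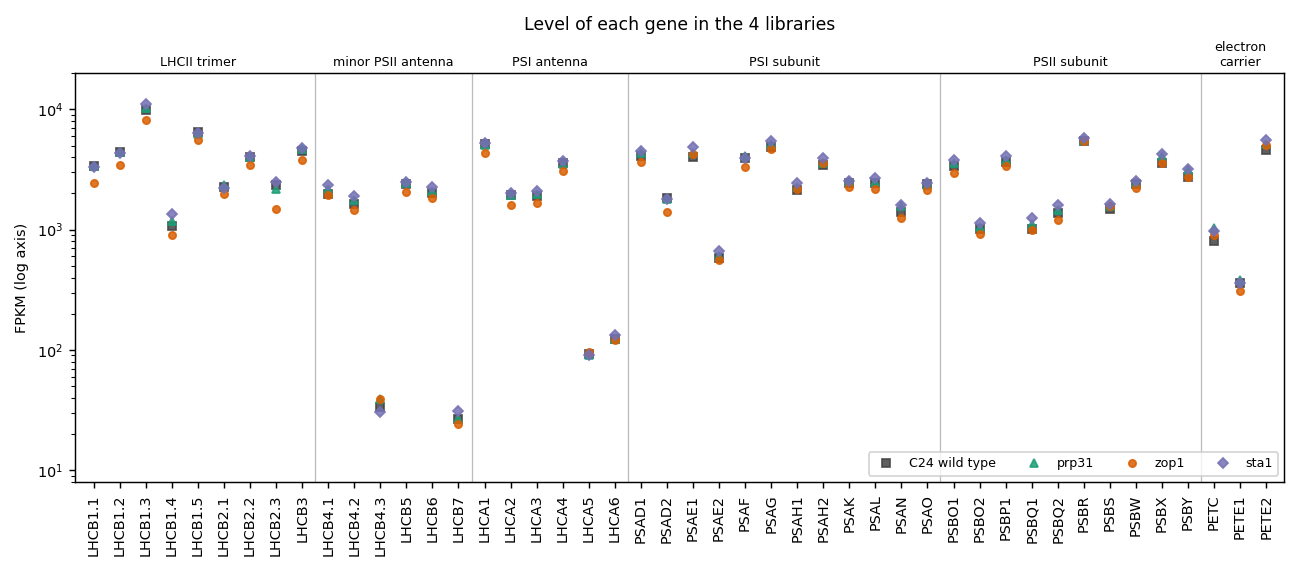
Level of each of the 46 genes (FPKM, log axis) in the 4 libraries, grouped by complex, 1 point per library. LHCB1.3 is the highest in each library, between 8153 and 11073 FPKM, LHCB4.3 and LHCB7 lie between 24.2 and 39.5 FPKM, and the 4 points of a gene lie close together beside the differences between genes.

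No member differed from the wild type by 2-fold in any mutant (0 of 46 in each), where 0.515% of the 19240 loci averaging 1 FPKM or more were higher and 0.426% lower in prp31, 0.956% and 1.28% in zop1, and 0.79% and 1.19% in sta1. Smaller differences are given by library order and by median. The zop1 library held the lowest of the 4 values for 38 of the 46 genes (82.6%), where it did so for 26.5% of all loci, 41.5% of the 1301 loci averaging 100 FPKM or more and 34.9% of the 63 other loci of at least 1000 FPKM. The sta1 library held the highest for 35 (76.1%), against 19.3%, 49.0% and 61.9% in the same order. The median difference of the 46 genes from the wild type, in log2(FPKM + 1), came to 0.06 for prp31, -0.16 for zop1 and 0.14 for sta1. Over all loci these medians were -0.02, -0.02 and -0.06, over the 1301 loci they were 0.04, -0.03 and 0.09, and over the 63 loci, which are closest to the members in level, 0.10, 0.01 and 0.18.

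A finer limit of 1.2-fold left few members on either side. In prp31, 1 of 46 was higher and 0 were lower, where 5.89% of all loci were higher and 7.92% lower. Loci of at least 100 FPKM were higher in 6.3%. In zop1, 6 were lower and 0 higher, where 15.1% of all loci were lower and 14.3% higher, and 12.5% of the loci of at least 100 FPKM were lower. The 6 are 13.0% of the members, which is near the background. In sta1, 5 were higher and 0 lower, where 9.65% of all loci were higher and 17.6% lower, and 13.3% of the loci of at least 100 FPKM were higher. The 5 are 10.9% of the members, again near that background, while 30.2% of the 63 loci of at least 1000 FPKM were higher. Of those 63, 15.9% were lower in zop1 and 14.3% higher in prp31. The zop1 count was 5 with median-of-ratios and 4 with upper-quartile scaling of the libraries. The sta1 count depends more on scaling, and was 10 and 13 in the same order. In zop1, 38 of 46 (82.6%) lay below the wild type, where 53.2% of all loci, 54.3% of the loci of at least 100 FPKM and 44.4% of the 63 loci did. In sta1, 38 (82.6%) lay above it, where 39.8%, 68.9% and 82.5% did. In prp31, 35 (76.1%) lay above it, against 43.8%, 65.2% and 84.1%. Beside the loci of like level, the members' signs in sta1 were thus near the background and those in prp31 below it, while in zop1 their share was larger. Under either other scaling 36 lay below in zop1, 45 above in sta1 and 41 above in prp31. Both scalings moved all loci upward against the wild type, most in sta1, by 0.059 and 0.067 in log2. The sta1 median over all loci became -0.004 and 0.002. Shares of all loci or of the 63 were not taken for the rescaled counts, so these counts have no background beside them.

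**Figure D2:**
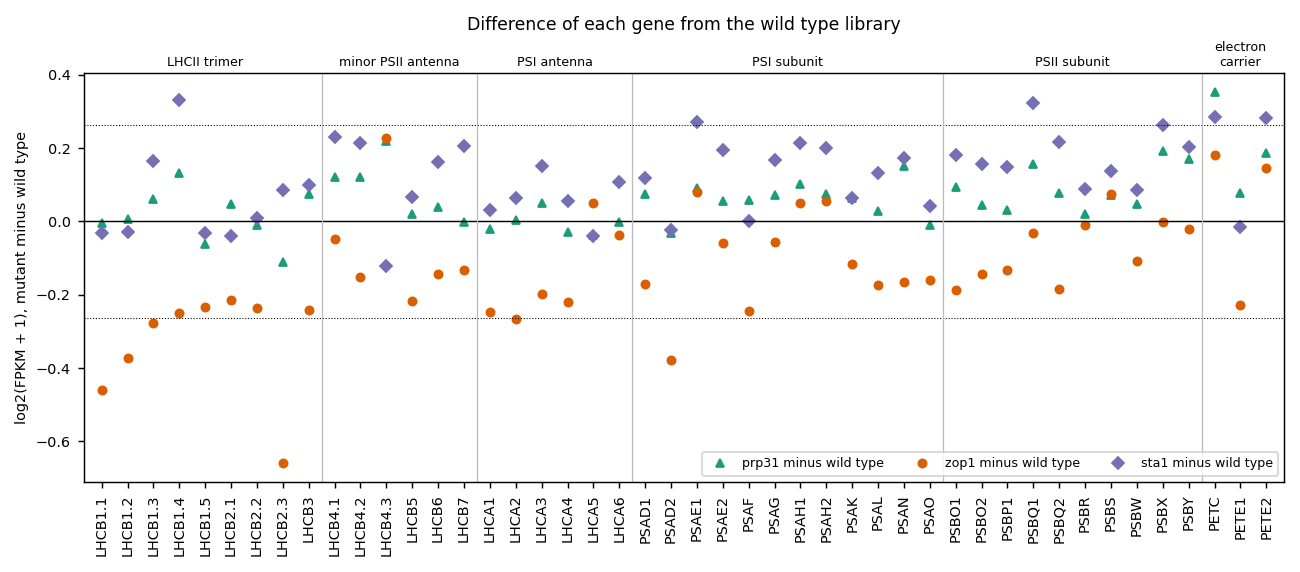
Difference of each gene from the wild type library in log2(FPKM + 1), for prp31, zop1 and sta1, grouped by complex. Dotted lines mark 1.2-fold. All 9 LHCII genes lie below 0 in zop1, the lowest point is LHCB2.3 at -0.66, and the highest point of prp31 is PETC at 0.35.

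The bases before 5 transcription starts are shown: LHCB2.3 had the largest difference in zop1, LHCB1.3 was the most abundant member, LHCB1.1 was also past 1.2-fold lower in zop1, PETC was past 1.2-fold higher in prp31, and PETE2 encodes the major plastocyanin. They were read from the RefSeq TAIR10.1 genome, are written 5′ to 3′ on the gene's strand, and were picked after the values were seen. Capitals mark matches on either strand to 3 motifs known from light-regulated plant promoters: the G-box CACGTG, the I-box GATAAG, and CCAATC, which holds the CCAAT box. A match on the other strand appears as its reverse complement. Of LHCB2.3 only the 215 bases before its outermost annotated start are shown, and of the others 250.
LHCB2.3, chr3:10255691-10255905, plus strand: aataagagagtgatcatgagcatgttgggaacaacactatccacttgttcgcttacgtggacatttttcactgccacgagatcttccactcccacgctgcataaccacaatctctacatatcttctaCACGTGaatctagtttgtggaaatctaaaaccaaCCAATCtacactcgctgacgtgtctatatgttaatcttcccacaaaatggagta
LHCB1.3, chr1:10477635-10477884, plus strand: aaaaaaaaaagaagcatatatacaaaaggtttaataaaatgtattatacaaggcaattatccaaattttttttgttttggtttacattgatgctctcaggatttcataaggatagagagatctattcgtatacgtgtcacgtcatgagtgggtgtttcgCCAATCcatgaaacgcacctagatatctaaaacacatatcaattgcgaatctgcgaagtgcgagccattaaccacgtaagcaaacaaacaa
LHCB1.1, chr1:10475970-10476219, minus strand: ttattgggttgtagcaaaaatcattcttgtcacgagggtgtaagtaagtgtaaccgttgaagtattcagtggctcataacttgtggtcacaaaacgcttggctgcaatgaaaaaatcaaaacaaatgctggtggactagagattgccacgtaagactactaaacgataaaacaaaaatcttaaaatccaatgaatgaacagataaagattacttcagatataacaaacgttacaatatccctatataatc
PETC, chr4:1439896-1440145, plus strand: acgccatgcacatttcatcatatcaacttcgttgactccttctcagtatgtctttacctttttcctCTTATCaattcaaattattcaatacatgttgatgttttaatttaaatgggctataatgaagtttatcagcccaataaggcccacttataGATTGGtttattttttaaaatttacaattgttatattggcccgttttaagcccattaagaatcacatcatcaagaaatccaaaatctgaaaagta
PETE2, chr1:7043393-7043642, minus strand: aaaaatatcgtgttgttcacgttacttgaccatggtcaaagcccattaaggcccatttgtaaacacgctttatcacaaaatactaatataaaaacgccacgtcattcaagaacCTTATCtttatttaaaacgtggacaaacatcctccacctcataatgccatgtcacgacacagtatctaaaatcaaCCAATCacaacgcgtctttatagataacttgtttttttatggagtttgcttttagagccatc

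Of these picked windows, LHCB1.1 held no match, the other 4 held CCAATC, PETC and PETE2 the I-box, and LHCB2.3 the G-box. Among the genes past 1.2-fold lower in zop1, LHCB1.1, LHCB1.2, LHCA2 and PSAD2 held none of the 3 motifs, while LHCB1.3 and LHCB2.3 held matches. Members that did not pass there, such as LHCB3, LHCB5 and PSAG, also held none. The share of members or of all promoters with none of the 3 was not counted, and a link between motifs and zop1 levels was not tested. Over the 250 bases before the start, 9 of the 46 members (19.6%) held the G-box, against 7.63% of 18669 promoters of expressed loci. The I-box was matched in 12 members (26.1%) against 12.6%, and CCAATC in 14 (30.4%) against 10.6%. The shorter GATAA, which lies inside the I-box, was matched in 33 members (71.7%) against 55.3%. A match is a string of letters and not a bound site.

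LHCII, the trimeric antenna that binds most of the chlorophyll of photosystem II, is encoded by LHCB1, LHCB2 and LHCB3 genes. Its 9 genes were all lower in zop1 than in the wild type and 4 of them passed 1.2-fold, with a median difference of -0.25. Of the 63 other loci of at least 1000 FPKM, 44.4% were lower in zop1 and 15.9% passed 1.2-fold lower. The summed level of the 9 LHCII genes was 38409 FPKM in wild-type seedlings, 38772 in prp31, 31137 in zop1 and 40009.6 in sta1. So zop1 was at 0.811 of the wild type, prp31 at 1.009 and sta1 at 1.04. In prp31 and sta1 the 9 genes were split, with 5 above and 4 below the wild type in each. As deposited, 43.8% of all loci and 84.1% of the 63 lay above in prp31, and 39.8% and 82.5% in sta1. The directions of the 9 genes in these mutants depend on scaling. Under both other scalings 7 of 9 lay above in prp31 and all 9 in sta1, while all 9 stayed below in zop1.

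LHCB2.3, on chromosome 3 from 10255906 to 10257489, had the largest difference of all 46 genes. LHCB2.3 (AT3G27690) had 1483 FPKM in zop1, 2485 in sta1, 2169.8 in prp31 and 2343 in the wild type. Its zop1 value stood alone, at 0.633 of the wild type (interval 0.627 to 0.639), while the other 3 libraries lay close together. LHCB2.2 (AT2G05070) was at 4048 FPKM in wild-type seedlings, 4019 in prp31, 3439 in zop1 and 4071 in sta1. LHCB2.1 (AT2G05100) had 1969 FPKM in zop1, 2221 in sta1, 2360.3 in prp31 and 2284 in the wild type. These close relatives encode the same antenna type and were also lowest in zop1, but less so, at 0.8497 and 0.862 of the wild type. LHCB2.1 and LHCB2.2 hold an identical coding run of 137 bases, so reads can be shared between them and their values may not be independent. Summed over the 3 LHCB2 genes, zop1 was at 0.794 of the wild type. The share of LHCB2.3 in the summed FPKM of the 3 LHCB2 genes was 27.0% in wild-type seedlings, 25.4% in prp31, 21.5% in zop1 and 28.3% in sta1.

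The 5 LHCB1 genes are intronless and encode the most abundant antenna protein. LHCB1.1, LHCB1.2 and LHCB1.3 stand next to each other on chromosome 1, and LHCB1.4 and LHCB1.5 on chromosome 2. Because reads of such copies can be shared, the last 60 coding bases are printed, read from RefSeq TAIR10.1 on the gene's strand, with the 9 positions that differ among the copies in capitals.
LHCB1.1, chr1:10475089-10475148, minus strand: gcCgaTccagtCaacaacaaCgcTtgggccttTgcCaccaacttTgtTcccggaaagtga
LHCB1.2, chr1:10472443-10472502, minus strand: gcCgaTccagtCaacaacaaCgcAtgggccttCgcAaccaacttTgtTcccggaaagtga
LHCB1.3, chr1:10478815-10478874, plus strand: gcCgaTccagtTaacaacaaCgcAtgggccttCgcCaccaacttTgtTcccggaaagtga
LHCB1.4, chr2:14525559-14525618, plus strand: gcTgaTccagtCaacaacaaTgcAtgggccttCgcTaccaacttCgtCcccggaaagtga
LHCB1.5, chr2:14522716-14522775, minus strand: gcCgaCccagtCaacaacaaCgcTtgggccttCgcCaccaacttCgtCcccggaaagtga

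Coding identity was between 95.6% and 96.4% within the chromosome 1 group and 91.4% between LHCB1.4 and LHCB1.5, with identical runs of up to 122 bases. The split of reads among these copies therefore follows the authors' processing. LHCB1.3 (AT1G29930) was at 9871 FPKM in wild-type seedlings, 10292 in prp31, 8153 in zop1 and 11073 in sta1. It was the highest gene of the whole group in each library. LHCB1.2 (AT1G29910) had 3419 FPKM in zop1, 4337 in sta1, 4446 in prp31 and 4428 in the wild type. LHCB1.1 (AT1G29920) was at 3372 FPKM in wild-type seedlings, 3361 in prp31, 2450.5 in zop1 and 3301 in sta1. All 3 were lowest in zop1 and passed 1.2-fold there, at 0.826, 0.772 and 0.727 of the wild type, though LHCB1.3 did not pass under upper-quartile scaling. LHCB1.5 (AT2G34420) had 5519.9 FPKM in zop1, 6355 in sta1, 6217 in prp31 and 6494 in the wild type. LHCB1.4 (AT2G34430) was at 1079.8 FPKM in wild-type seedlings, 1183 in prp31, 908 in zop1 and 1358 in sta1. LHCB1.4, the lowest of the copies, was the only LHCII gene past 1.2-fold in sta1, at 1.26 of the wild type (interval 1.24 to 1.27). Summed over the 5 copies, the level was 25245 FPKM in wild-type seedlings, 25498 in prp31, 20449.8 in zop1 and 26424 in sta1, and the zop1 sum was 0.81 of the wild type. The copies' transcripts are 1045 to 1314 bases long, and the handling of shared reads was not given. The sum can thus still depend on that handling. LHCB3 (AT5G54270) had 3796 FPKM in zop1, 4808 in sta1, 4724 in prp31 and 4488 in the wild type. LHCB3, a single gene, encodes the third trimer subunit and had the same order, with zop1 lowest and sta1 highest.

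Root marker transcripts differed between the same libraries. All 16 markers summed to 1470.0 FPKM in wild-type seedlings, 1718 in prp31, 1585 in zop1 and 1733 in sta1, and PYK10 made up most of each sum. The 15 root markers other than PYK10 summed to 249.6 FPKM in wild-type seedlings, 228.6 in prp31, 351 in zop1 and 278 in sta1, and all 6 root-hair markers were above the wild type in zop1. Of the 102 FPKM by which the 15 were higher in zop1, PRP1 and PRP3 made up 90.3. Of the 6 endodermis markers, 4 were above and 2 below the wild type in zop1. The root-tip markers PLT1, PLT2 and SHR were all below the wild type in zop1. Among all loci, 46.6% lay above it there. Root-hair markers were above the wild type in 5 of 6 cases in sta1 and in 1 of 6 in prp31, where 39.8% and 43.8% of all loci were. PRP1, a root-hair cell wall protein, was at 19.6 FPKM in wild-type seedlings, 14.6 in prp31, 47.2 in zop1 and 30.0 in sta1, and PRP3 at 89.1, 84.7, 152 and 127. The endodermis marker CASP5 was at 2.89, 1.71, 3.66 and 1.29 FPKM in the same order, and PYK10, an abundant root protein, at 1220.4, 1489.8, 1233 and 1454. None of the 16 markers was listed at 0, and PLT1 and PLT2 were under 1 FPKM in each library. The part of root tissue in the lower antenna levels of zop1 was not tested.

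The minor antenna proteins LHCB4, LHCB5 and LHCB6 sit as single units between LHCII and the photosystem II core. Of these genes and LHCB7, 5 of 6 were lower in zop1 and 5 of 6 higher in sta1 than in the wild type, and none passed 1.2-fold in any mutant. Of all loci, 53.2% were lower in zop1 and 39.8% higher in sta1. Among the 63 other loci of at least 1000 FPKM these shares were 44.4% and 82.5%. LHCB5 (AT4G10340) was at 2392 FPKM in wild-type seedlings, 2424 in prp31, 2058 in zop1 and 2506 in sta1. LHCB7 (AT1G76570) had 24.2 FPKM in zop1, 30.9 in sta1, 26.6 in prp31 and 26.6 in the wild type. These are the most abundant and the rarest of the 6 by mean level, and both were lowest in zop1 and highest in sta1. The 2 main LHCB4 copies kept this order too. LHCB4.1 (AT5G01530) was at 1998 FPKM in wild-type seedlings, 2172 in prp31, 1932 in zop1 and 2343 in sta1. LHCB4.2 (AT3G08940) had 1468 FPKM in zop1, 1891 in sta1, 1773 in prp31 and 1631 in the wild type. The third copy did not. LHCB4.3 (AT2G40100) was at 33.5 FPKM in wild-type seedlings, 39.2 in prp31, 39.5 in zop1 and 30.7 in sta1. LHCB4.3 was the only minor antenna gene above the wild type in zop1 (ratio 1.18, interval 1.101 to 1.26) and below it in sta1 (0.916, interval 0.855 to 0.981). It supplied between 0.72% and 1.15% of the summed LHCB4 level. LHCB6 lay between 1830.0 FPKM in zop1 and 2265 in sta1.

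LHCA1 to LHCA4 form the antenna belt on one side of photosystem I, and LHCA5 and LHCA6 are rarer forms that link it to the chloroplast NADH dehydrogenase-like complex. The 4 belt genes were all lowest in zop1 and highest in sta1. Of the 63 other loci of at least 1000 FPKM, 34.9% were lowest in zop1 and 61.9% highest in sta1. LHCA1 (AT3G54890) had 4357 FPKM in zop1, 5281 in sta1, 5094 in prp31 and 5170.3 in the wild type. LHCA2 (AT3G61470) was at 1941 FPKM in wild-type seedlings, 1944 in prp31, 1614 in zop1 and 2029.7 in sta1. LHCA2 alone passed 1.2-fold in zop1, at 0.832 of the wild type (interval 0.824 to 0.839), though it did not under the other scalings, and LHCA1 and LHCA4 were close behind at 0.843 and 0.859. LHCA3 (AT1G61520) had 1655 FPKM in zop1, 2106 in sta1, 1967 in prp31 and 1898 in the wild type. In LHCA3 the zop1 ratio was 0.872 and the sta1 ratio 1.11. LHCA5 (AT1G45474) was at 92.4 FPKM in wild-type seedlings, 90.1 in prp31, 95.7 in zop1 and 89.9 in sta1. In each mutant the counting interval of the LHCA5 ratio held 1. LHCA6 lay between 120.0 FPKM in zop1 and 133 in sta1. The summed level of the 6 genes in zop1 was 0.852 of the wild type.

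The nuclear photosystem I subunits had a median of -0.14 in zop1, as did the minor antenna, against -0.25 for LHCII and -0.21 for the photosystem I antenna. In sta1 their median was 0.15, where that of the 63 other loci of at least 1000 FPKM was 0.18. PSAD and PSAE form the stromal face where ferredoxin docks. PSAD1 (AT4G02770) had 3667 FPKM in zop1, 4483 in sta1, 4349 in prp31 and 4132 in the wild type. PSAD2 (AT1G03130) was at 1828 FPKM in wild-type seedlings, 1789 in prp31, 1407 in zop1 and 1799 in sta1. PSAD2 was the only photosystem subunit past 1.2-fold in zop1, at 0.770 of the wild type (interval 0.761 to 0.779). PSAE1 (AT4G28750) had 4262 FPKM in zop1, 4870.2 in sta1, 4301 in prp31 and 4035 in the wild type. PSAE2 (AT2G20260) was at 583 FPKM in wild-type seedlings, 606 in prp31, 559 in zop1 and 668 in sta1. The major PSAE copy went the other way from PSAD in zop1, at 1.06 of the wild type, and passed 1.2-fold in sta1 at 1.21. PSAH, at the site where LHCII attaches, had the signs of PSAE1. PSAH1 (AT3G16140) had 2196 FPKM in zop1, 2462 in sta1, 2278 in prp31 and 2122 in the wild type. PSAH2 (AT1G52230) was at 3434 FPKM in wild-type seedlings, 3618 in prp31, 3568 in zop1 and 3949 in sta1. The zop1 ratios to the wild type were 1.03 and 1.04, and the sta1 ratios 1.16 and 1.15.

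Among the other photosystem I subunits, PSAG, which stabilises the antenna contact, was the most abundant. PSAG (AT1G55670) had 4725 FPKM in zop1, 5514 in sta1, 5168 in prp31 and 4913 in the wild type. PSAN (AT5G64040) was at 1414 FPKM in wild-type seedlings, 1571 in prp31, 1261 in zop1 and 1594 in sta1. PSAN, a lumenal subunit on the plastocyanin side, had the largest difference of the 12 subunits in prp31, at 1.11 of the wild type. PSAF, the plastocyanin-docking subunit, and PSAK, PSAL and PSAO, on the antenna side, were all lowest in zop1, with ratios to the wild type of 0.843, 0.922, 0.887 and 0.895. Their ratios in sta1 were 1.002, 1.04, 1.096 and 1.03.

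All 10 photosystem II subunits were above the wild type in both prp31 and sta1, and 9 of 10 were below it in zop1, or 7 of 10 under either other scaling. Of the 63 other loci of at least 1000 FPKM, 84.1% lay above in prp31, 82.5% above in sta1 and 44.4% below in zop1. The medians of the 10 subunits were 0.07 in prp31 and 0.17 in sta1, near the 0.10 and 0.18 of the 63 loci, and -0.07 in zop1 against 0.01. The oxygen-evolving proteins PSBO, PSBP and PSBQ shield the manganese cluster in the lumen. PSBO1 (AT5G66570) had 2949 FPKM in zop1, 3808 in sta1, 3583 in prp31 and 3359 in the wild type. PSBO2 (AT3G50820) was at 1022 FPKM in wild-type seedlings, 1055 in prp31, 926 in zop1 and 1139 in sta1. Both PSBO copies were lowest in zop1 and highest in sta1. PSBQ1 (AT4G21280) had 987 FPKM in zop1, 1262 in sta1, 1124 in prp31 and 1008 in the wild type. PSBQ2 (AT4G05180) was at 1374 FPKM in wild-type seedlings, 1448 in prp31, 1209 in zop1 and 1597 in sta1. PSBQ1 passed 1.2-fold in sta1, at 1.25 of the wild type (interval 1.23 to 1.27), and PSBP1 was at 1.11.

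The small subunits PSBR, PSBX and PSBY differed less in zop1 than the PSBO, PSBP and PSBQ genes did. PSBW, also small, differed more there than PSBQ1, which was at 0.979 of the wild type. PSBR (AT1G79040) had 5444 FPKM in zop1, 5837 in sta1, 5563 in prp31 and 5486 in the wild type. PSBX (AT2G06520) was at 3588 FPKM in wild-type seedlings, 4102 in prp31, 3582 in zop1 and 4301 in sta1. PSBX was within counting error of the wild type in zop1 (0.999, interval 0.989 to 1.008) and at 1.14 and 1.199 in prp31 and sta1. PSBY had zop1, prp31 and sta1 ratios of 0.986, 1.12 and 1.15, and PSBW of 0.928, 1.03 and 1.06. PSBS (AT1G44575) had 1576 FPKM in zop1, 1648 in sta1, 1574 in prp31 and 1498 in the wild type. PSBS, which senses lumen acidity and switches the antenna to heat dissipation, was the only photosystem II subunit above the wild type in zop1 as deposited, at 1.05, while PSBR and PSBX also were under both other scalings.

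PETC, the Rieske iron-sulphur protein of cytochrome b6f, had the largest prp31 difference of the 46 genes. PETC (AT4G03280) was at 805 FPKM in wild-type seedlings, 1028 in prp31, 912 in zop1 and 980.3 in sta1. It was the only member past 1.2-fold in prp31 (ratio 1.28, interval 1.26 to 1.296), and it passed in sta1 too (1.22). Plastocyanin, the copper protein between cytochrome b6f and photosystem I, has a major and a minor gene. PETE2 (AT1G20340) had 5047 FPKM in zop1, 5552 in sta1, 5195 in prp31 and 4563 in the wild type. PETE1 (AT1G76100) was at 363 FPKM in wild-type seedlings, 383 in prp31, 309.6 in zop1 and 359 in sta1. PETE2 was lowest in the wild type and past 1.2-fold in sta1 (1.22), while PETE1 was lowest in zop1. The share of PETE1 in the pair was 7.37% in wild-type seedlings, 6.87% in prp31, 5.78% in zop1 and 6.08% in sta1.

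**Figure D3:**
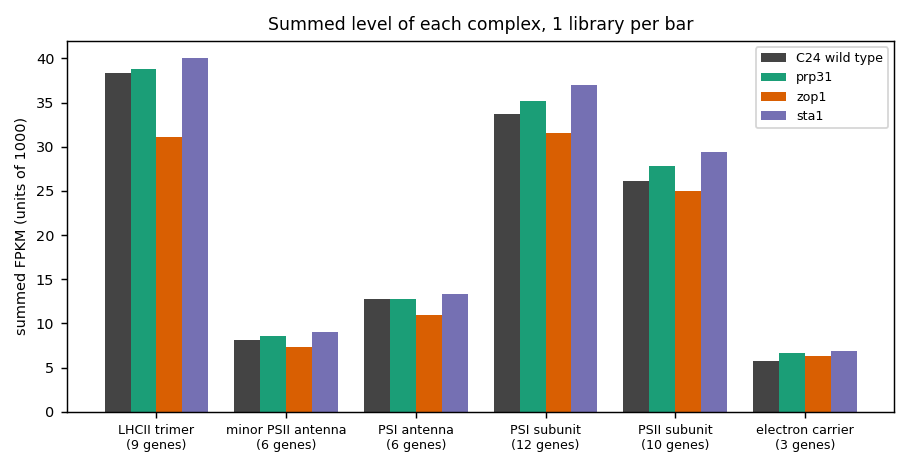
Summed FPKM (in units of 1000) of the genes of each complex, 1 bar per library, bars starting at 0. The zop1 bar is the lowest for all complexes but the electron carriers, where the wild type is lowest, and the LHCII bar of zop1 is at 0.811 of the wild type.

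Taken over complexes, the summed level in zop1 relative to the wild type was 0.811 for LHCII, 0.907 for the minor antenna, 0.852 for the photosystem I antenna, 0.936 for photosystem I subunits, 0.954 for photosystem II subunits and 1.09 for the carriers. In prp31 the same ratios were 1.009, 1.05, 0.994, 1.05, 1.06 and 1.15, and in sta1 1.04, 1.12, 1.04, 1.098, 1.12 and 1.203. The summed FPKM of the 21 antenna genes per FPKM of the 22 photosystem subunit genes, a ratio that no scaling between libraries can change, was 0.991 in wild-type seedlings, 0.953 in prp31, 0.875 in zop1 and 0.941 in sta1, lower than the wild type in each mutant and lowest in zop1. This ratio was chosen after the values were seen. The median of the photosystem I antenna in prp31 was -0.01, with 2 genes above and 4 below the wild type, but 0.02 and 0.01 under the other scalings, with 4 above and 2 below. As deposited, 43.8% of all loci and 84.1% of the 63 other loci of at least 1000 FPKM lay above in prp31.

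**Figure D4:**
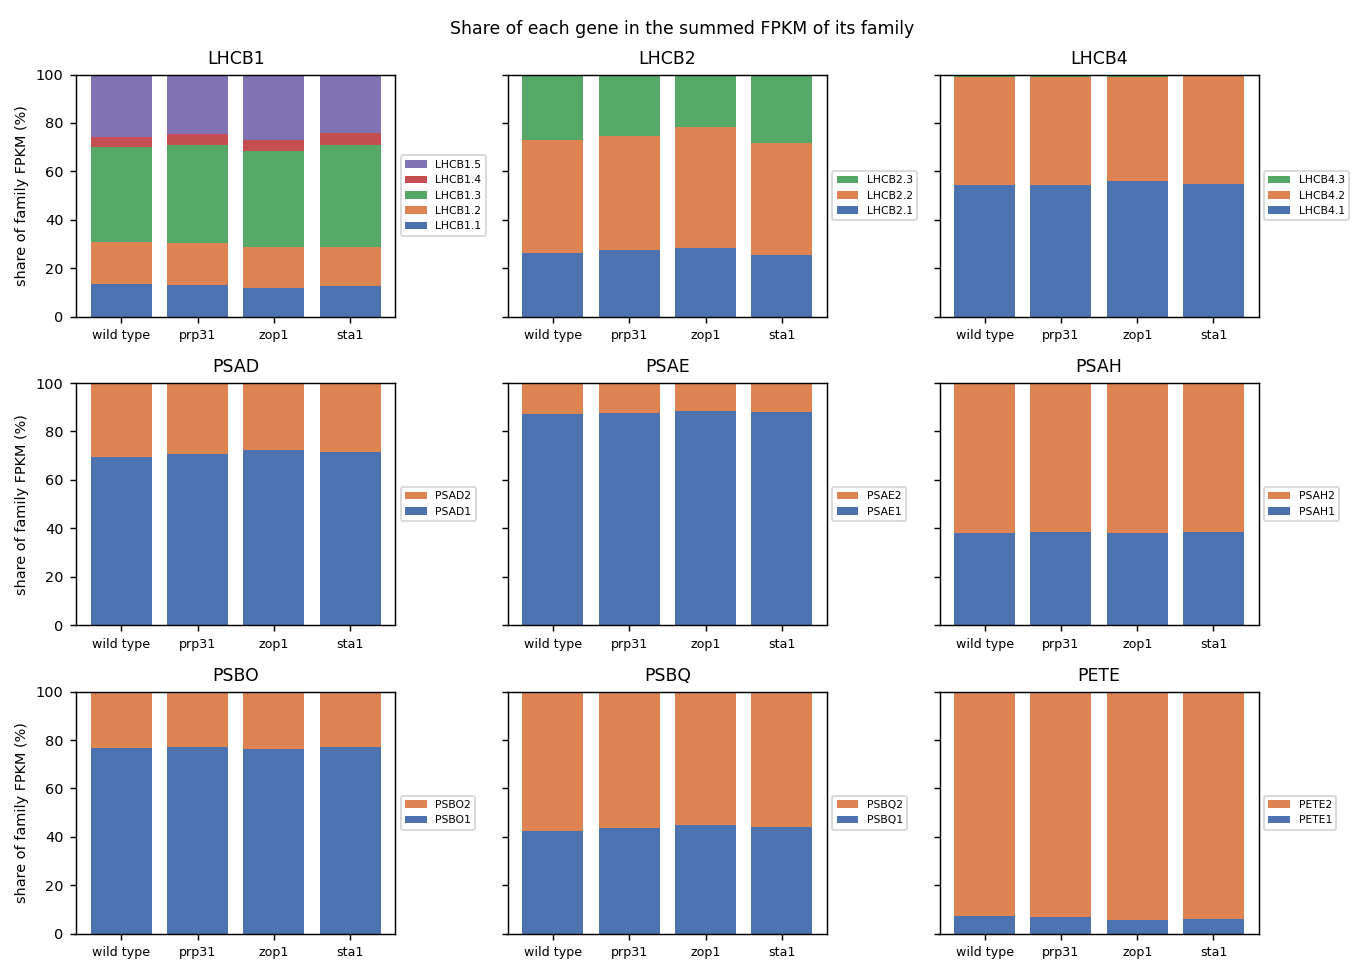
Share of each gene (%) in the summed FPKM of its family in the 4 libraries, for the 9 families with more than 1 gene. LHCB2.3 is at 27.0% in the wild type and 21.5% in zop1, and PSAH2 between 61.4% and 61.9% in all libraries.

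The shares of paralogs moved to different extents. PSAE1 supplied between 87.4% and 88.4% of its pair, PSAH2 between 61.4% and 61.9%, and PSBO1 between 76.1% and 77.3%. PSAD1 supplied 69.3% in the wild type and 72.3% in zop1, and PSBQ1 42.3% and 44.9%. LHCB2.3, PETE1 and LHCB4.3, given with their families above, moved by more than these relative to their own share.

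Of the 3 comparisons between mutants, zop1 against sta1 separated the genes furthest, a weight given to it after the values were seen. The zop1 level was below the sta1 level in 44 of 46 genes, the exceptions being LHCB4.3 and LHCA5, where 42.4% of all loci, 71.6% of those of at least 100 FPKM and 81.0% of the 63 loci of at least 1000 FPKM lay below. The median difference was -0.28, against 0.04 over all loci and -0.16 over the 63. At 1.2-fold, 25 members (54.3%) were lower in zop1, where 8.7% of all loci, 16.3% of the loci of at least 100 FPKM and 25.4% of the 63 other loci of at least 1000 FPKM were. LHCB2.3 in zop1 was at 0.597 of its sta1 level and LHCB1.4 at 0.668. These 25 were 6 LHCII, 5 minor antenna, 4 photosystem I antenna, 4 photosystem I and 6 photosystem II genes, and no carrier. Against prp31, zop1 was lower in 43 genes, where 48.1% of all loci, 63.6% of those of at least 100 FPKM and 69.8% of the 63 were, and past 1.2-fold in 13 (28.3%), where 12.7%, 14.3% and 17.5% passed. Between sta1 and prp31, 1 gene passed, LHCB4.3, lower in sta1, where 12.5% of all loci and 8.99% of those of at least 100 FPKM were.

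**Figure D5:**
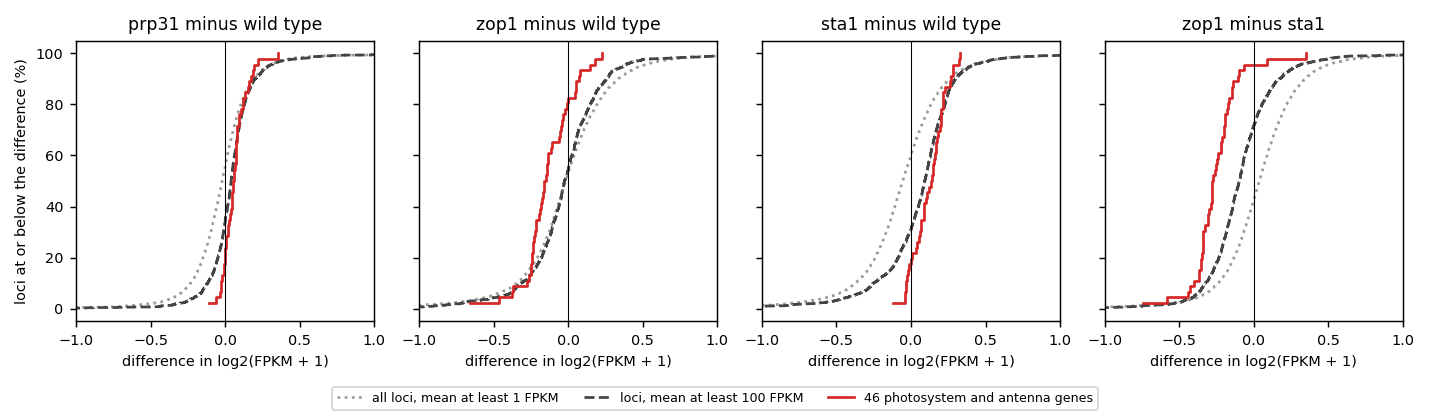
Percent of loci at or below each difference in log2(FPKM + 1), for each mutant minus the wild type and for zop1 minus sta1, over the 46 genes, all loci averaging 1 FPKM or more and loci averaging 100 FPKM or more. The curve of the 46 genes is shifted left in zop1 (median -0.16), right in sta1 (median 0.14) and furthest left in zop1 minus sta1 (median -0.28).

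The annotated gene structure varied among the members, from no intron to 5. Of the 12 genes with no intron, 11 were below the wild type in zop1 with a median of -0.23. The 23 genes with 1 or 2 introns had 19 below and a median of -0.14. The 11 with 3 or more had 8 below and a median of -0.13. Over all 46 members 82.6% lay below, and over all loci 53.2%. The LHCB1 genes made up 5 of the 12. Within the antenna the medians were -0.28, -0.17 and -0.22 in the same order. Among genes outside the antenna they were -0.06, -0.12 and -0.01, so the intronless genes were not lowest there. This split was made after the values were seen.

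Other genes of photosynthesis were read from a list of 41, of which 40 had a mean of at least 1 FPKM. Past 1.2-fold, 4 of the 40 were higher and 1 lower in prp31, 4 and 4 in zop1, and 9 and 1 in sta1. Of all loci, 5.89% were higher and 7.92% lower in prp31, 14.3% and 15.1% in zop1, and 9.65% and 17.6% in sta1. In sta1, 13.3% of the loci of at least 100 FPKM and 30.2% of the 63 of at least 1000 FPKM were higher. In zop1, 21 of the 40 genes were above the wild type and 19 below, with a median of 0.01, where 53.2% of all loci lay below. GLK1 and GLK2, activators of antenna genes, had wild-type levels of 92.1 and 102 FPKM and zop1 levels of 92.2 and 99.2 FPKM. PORB, a light-dependent chlorophyll synthesis enzyme, was at 113 FPKM in wild-type seedlings, 85.1 in prp31, 57.0 in zop1 and 80.5 in sta1, lower in all mutants. ELIP1 and ELIP2, light-stress proteins related to the antenna, were the 2 genes of the list past 2-fold. Both were 2-fold higher in sta1, only ELIP1 in zop1, and neither in prp31. Among all loci, 0.79%, 0.956% and 0.515% were 2-fold higher in the same order. ELIP1 was at 12.04 FPKM in wild-type seedlings, 17.4 in prp31, 30.8 in zop1 and 26.5 in sta1. ELIP2 was at 28.3, 48.7, 54.4 and 61.9 FPKM in the same order.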

How the data were processed

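The authors deposited FPKM values of 4 libraries in 1 table. TopHat2 2.0.12, Bowtie, Cufflinks 2.0.1, Cuffdiff and the TAIR10 build were used, per the submitters' processing notes. Roles, settings and strand use were not given in the sources used here, so reads of overlapping antisense genes were not told apart. Groups came from the titles. The members and lists were chosen with earlier results of these data known. Differences are of log2(FPKM + 1), which understates changes of low genes, over the 19240 loci that average at least 1 FPKM. Folds of single genes are ratios of FPKM.

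With 1 library per group there is no test. Members were counted past 2-fold and 1.2-fold and set beside the percent of all loci that passed. Implied reads came from the step of low FPKM values (995 of 3618 loci matched a transcript length less 204 nt). They are approximate and serve only for depth and counting intervals. Counts past 2-fold and the step between libraries were tested on simulated data. The simulation held counting error only, with no differences between plants or preparations, and counts past 1.2-fold were not simulated.

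Values in every library are given for the highest and lowest gene of each complex, the gene with the largest difference in each mutant and all paralogs; LHCB3, PSBS, GLK1 and GLK2 were added after their values were seen. Of the other 2 lists, genes past 2-fold and the 2 with the largest differences in each mutant are named. Chosen after values were seen were the loci of at least 100 FPKM, those of at least 1000 FPKM, the antenna ratio, the intron split and the printed promoters. Gene positions and sequences are RefSeq TAIR10.1, in which all 46 members were found. The complete model with the longest coding sequence was used for each gene. This rule replaced the first model in the numbering after the output of that first rule had been seen, because LHCB4.2 then had a shortened coding sequence; both outputs are given in the closing section. Python 3.11.15, pandas 2.3.3, numpy 2.4.6, scipy 1.17.1, biopython 1.88 and matplotlib 3.10.9 were used.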

Additional observations from a re-analysis of the deposited data

How the results depend on the processing

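No paired analysis was possible because each group has 1 library, and leaving out a replicate was not possible for the same reason. Pseudocounts of 0.1 and 10 left each median and count in its place. Using no filter or a mean of at least 10 FPKM could not move those of the members, since the lowest member mean was 27.1 FPKM (LHCB7). With median-of-ratios scaling the median difference of the members was 0.084 in prp31 and 0.194 in sta1, and 10 members were past 1.2-fold in sta1. With upper-quartile scaling the medians were 0.0831 in prp31, -0.1399 in zop1 and 0.2022 in sta1, with 13 past 1.2-fold in sta1. The shares of all loci past 1.2-fold under these scalings were not counted. The zop1 median was -0.1326 with paralogs summed and -0.172 over members of at least 1000 FPKM, an alternative added after seeing the data. A median counts as moved here when it shifts by more than the median half-width of the members' counting intervals, so these shifts are small in size, and no median or count over all 46 members turned its direction. Among the complexes, the photosystem I antenna did in prp31, from a median of -0.01 to 0.02 and 0.01. The scalings shifted libraries against the wild type by at most 0.07 (log2), and under either one the sign of a single gene's difference changed in 6 of 46 members in prp31, 2 in zop1 and 7 in sta1.

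Of the 2 rules tried for the gene model, the report uses the second. Under the first rule, the first model in the numbering, 13 members were intronless in place of 12, with a zop1 median of -0.23 under both rules. The I-box was matched in 13 members (28.3%) in place of 12 (26.1%) and GATAA in 35 (76.1%) in place of 33 (71.7%), while the G-box and CCAATC counts were 9 and 14 under both. Coding identity of LHCB2.1 and LHCB2.2 was 96.6% under the first rule and 77.8% under the second, where the LHCB2.1 model is longer, with identical runs of 152 and 137 bases. For PETE1 and PETE2 it was 72.9% and 60.3%, and for LHCB4.1 and LHCB4.2 61.1% and 81.2%. The LHCB1 values were the same under both rules.

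Depth limits little here, since 41 of the 46 genes had over 10000 implied reads in every library, and the counting interval of the ratio held 1 for 7 genes in prp31, 3 in zop1 and 4 in sta1. With 1 library per genotype, differences between plants or preparations of these sizes cannot be told apart from differences between genotypes.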
